A study of Homo sapiens with 9 samples.

Results

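The 9 genes described here encode enzymes that lead from acetyl-CoA to squalene in the mevalonate pathway: ACAT2, HMGCS1, MVK, PMVK, MVD, IDI1, FDPS, GGPS1 and FDFT1. They were taken by name, matched to the counted genes through their Ensembl identifiers, and not by how they moved. All 9 were among the 58381 genes counted, and all 9 were among the 12814 that passed the filter on low counts. RNA was counted in 9 libraries of EGI-1, a human cell line from a cancer of the bile ducts (cholangiocarcinoma): 3 with the hairpin FOSL1sh3, 3 with the hairpin FOSL1sh10 and 3 with the control hairpin GFPsh. The FOSL1 hairpins are short hairpin RNAs that target FOSL1, the gene of the AP-1 subunit FRA-1, and each hairpin is switched on by doxycycline. Cells of all 3 groups, the control included, carried such a hairpin and received doxycycline at 2 ug per ml for 4 days, then grew for 24 hours after seeding. The labels do not say whether each hairpin line was a clone or a pool, nor whether replicates were grown separately, so the p-values cover only the spread among these libraries, and that spread may be technical.

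The mevalonate pathway builds isoprenoids from acetyl-CoA. ACAT2 joins acetyl-CoA units to acetoacetyl-CoA, HMGCS1 adds a further acetyl unit to give HMG-CoA, and, once this has been reduced to mevalonate (a step not analysed here), MVK, PMVK and MVD phosphorylate and decarboxylate it to isopentenyl diphosphate. IDI1 converts that unit to its reactive isomer, FDPS links units into farnesyl diphosphate, GGPS1 lengthens this to geranylgeranyl diphosphate, and FDFT1 joins farnesyl diphosphate units into squalene, which commits them to sterols. In liver and in cultured cells most of these genes are known to be induced together by the transcription factor SREBP-2 when cell sterol is low.

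Library totals ran from 6893026 to 10604251 counts. A count of 0 allows up to 3 counts, which stood for 0.283 to 0.435 CPM (counts rescaled to an equal depth) by library totals; this covers counting error only. Levels below are CPM with totals also corrected by TMM factors. The targeted gene FOSL1 had 72.3, 70.3 and 44.9 CPM in FOSL1sh3 cells, 70.9, 57.1 and 65.8 CPM in FOSL1sh10 cells, and 303, 257 and 182 CPM in GFPsh cells, so all 6 libraries with a FOSL1 hairpin lay below all 3 controls. Biliary markers (KRT7, KRT19, KRT8, KRT18, EPCAM and SOX9) were all tested, with a summed level of 12000 to 13400 CPM with FOSL1sh3, 10700 to 12700 with FOSL1sh10 and 10700 to 11600 with GFPsh. The sum hides markers that moved apart. By the edgeR test described below only KRT7 passed, higher with FOSL1sh3 (log2 fold change 0.46, adjusted p = 0.0432) and with FOSL1sh10 (0.71, 0.00456). EPCAM and SOX9 were at -0.44 and -0.46 with FOSL1sh3 (0.0601 and 0.0529), and at 0.05 and 0.34 with FOSL1sh10 (0.9 and 0.187). Of 5 leukocyte markers none passed the filter, CD3E and CD68 had no count, and the summed level was at most 0.856 CPM. Of 7 fibroblast and endothelial markers only COL1A1 passed; their summed level was 4.31 to 8.02 CPM with FOSL1sh3, 8.13 to 9.58 with FOSL1sh10 and 2.93 to 4.74 with GFPsh, and DCN and PDGFRB had no count. Of 5 hepatocyte markers only SERPINA1 passed the filter, with a summed level of 8.08 to 11.6 CPM with FOSL1sh3, 13.8 to 17.6 with FOSL1sh10 and 6.19 to 7.31 with GFPsh, and CYP3A4 had no count. By the same edgeR test SERPINA1 was higher with FOSL1sh10 (log2 fold change 1.27, adjusted p = 0.00141), and was at 0.56 with FOSL1sh3 (0.116). The part of these low levels in the results below was not tested.

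A log2 fold change (hairpin over GFPsh) below 0 was found for 8 of the 9 members with FOSL1sh3 and for all 9 with FOSL1sh10, and HMGCS1 had the lowest fold change of the 9 in both comparisons. With FOSL1sh3, HMGCS1, ACAT2, IDI1 and MVD fell (edgeR's quasi-likelihood test; a call needs an adjusted p under 0.05, by Benjamini and Hochberg's method across the 12814 genes). With FOSL1sh10, HMGCS1, MVK, IDI1 and FDFT1 fell. PMVK, GGPS1 and FDPS passed the test with neither hairpin, and no member rose. These were 4 of 9 members in each comparison, where 5.65% of all 12814 genes were called lower with FOSL1sh3 and 2.15% with FOSL1sh10 (10.9% and 5.28% in either direction). The median log2 fold change of the 9 members was -0.61 with FOSL1sh3 and -0.56 with FOSL1sh10, beside 0.01 and 0.00 over all genes tested. Both comparisons share the same 3 control libraries. Fewer cells of a type and less RNA per cell cannot be told apart in such bulk samples. Of all called genes 48% were higher with FOSL1sh3 and 59.3% with FOSL1sh10, and with library totals alone as scaling these shares were 34% and 77.5%. Averaged over both hairpins, 5 members fell against GFPsh, HMGCS1, IDI1, ACAT2, MVK and FDFT1, with 2.97% of all genes called lower and 6.22% in either direction.

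**Figure D1:**
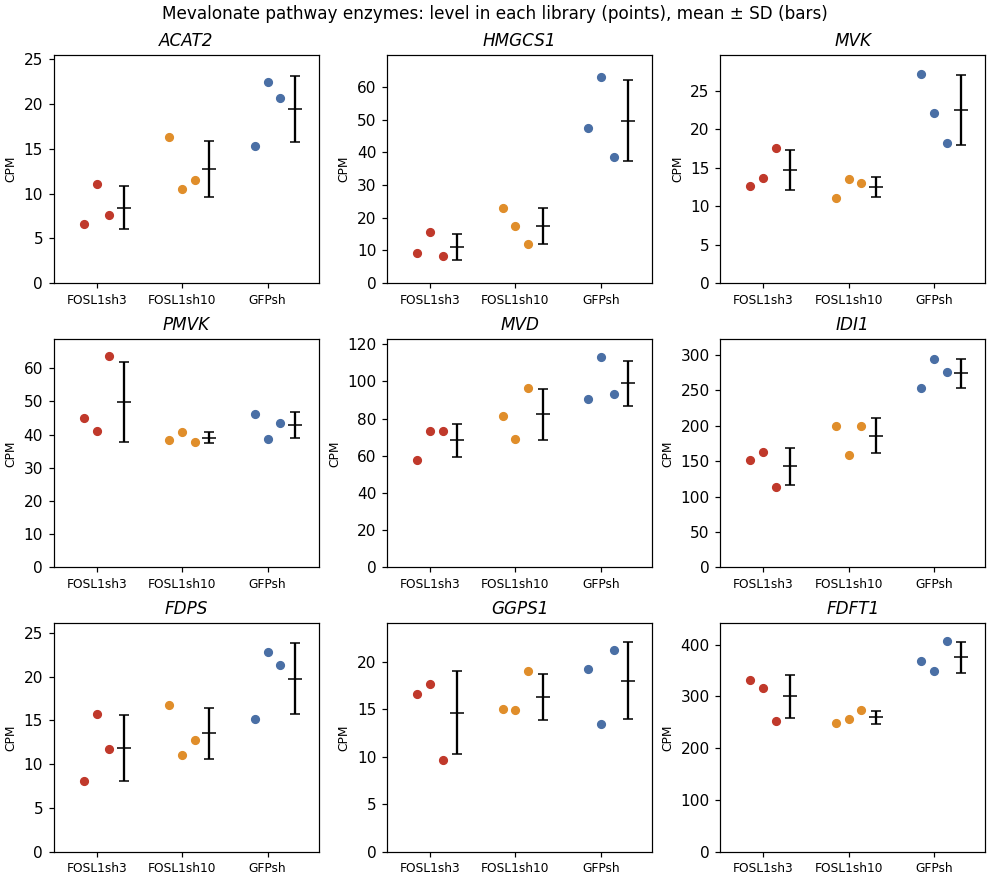
Level of each enzyme in CPM (vertical axes, from 0) in every library of FOSL1sh3, FOSL1sh10 and GFPsh; points are libraries and the black bars are mean ± SD of 3. HMGCS1 lay between 8.40 and 23.1 CPM in the 6 libraries with a FOSL1 hairpin and between 38.7 and 63.0 CPM in the controls, while the PMVK libraries of each FOSL1 hairpin overlapped the controls.

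Taken library by library, 7, 6 and 8 of the 9 members lay below the lowest control in FOSL1sh3 replicates 1, 2 and 3, and 6, 7 and 7 in FOSL1sh10 replicates 1, 2 and 3. Over all tested genes that share was 33.4%, 30.2% and 35.3% in the FOSL1sh3 libraries and 29.9%, 29.7% and 29.2% in the FOSL1sh10 libraries. With FOSL1sh3, ACAT2, HMGCS1, MVK, MVD, IDI1 and FDFT1 had all 3 libraries below all 3 controls, which is 6 of 9 members against 14.5% of all genes. With FOSL1sh10 this held for HMGCS1, MVK, IDI1 and FDFT1, 4 of 9 against 13.0%. These 4 genes therefore had all 6 hairpin libraries below all controls, as did 4.39% of all genes.

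**Figure D2:**
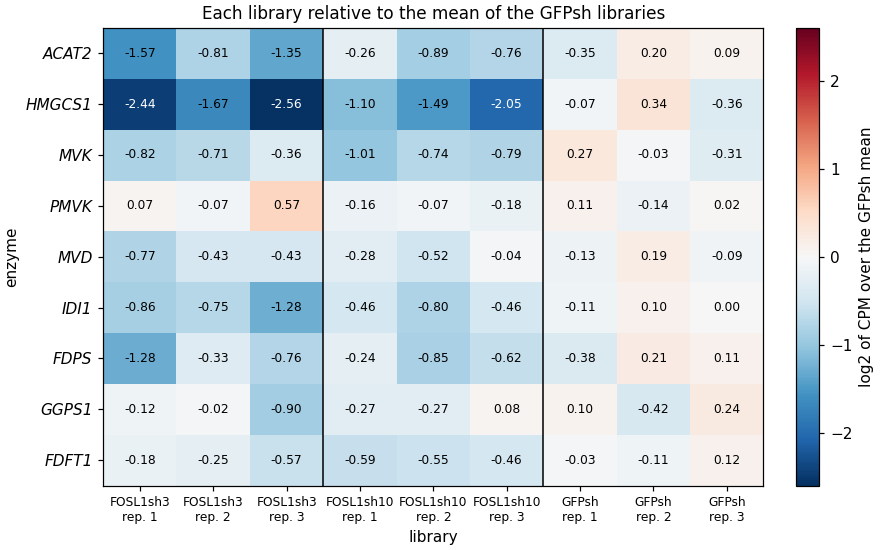
Log2 of each library's CPM over the mean of the GFPsh libraries (colour and printed value), for the enzymes in pathway order (rows) and the libraries of FOSL1sh3, FOSL1sh10 and GFPsh (columns). HMGCS1 had the lowest value in every FOSL1-hairpin library, from -2.56 to -1.10, and PMVK stayed within -0.18 to 0.57.

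HMGCS1, the cytosolic HMG-CoA synthase, is annotated at chr5:43289395-43313512 on the minus strand (hg38). It may have been singled out by the study on these same libraries, so its fall is not independent evidence. It had 89, 108 and 66 counts with FOSL1sh3 and 162, 156 and 118 counts with FOSL1sh10, against 343, 560 and 351 counts with GFPsh. Scaled, these were 9.13, 15.6 and 8.40 CPM with FOSL1sh3, 23.1, 17.6 and 12.0 CPM with FOSL1sh10, and 47.3, 63.0 and 38.7 CPM with GFPsh. Every hairpin library was below every control, and the highest hairpin library, at 23.1 CPM, was well under the lowest control, at 38.7 CPM. HMGCS1 was at 22% of the control with FOSL1sh3, a log2 fold change of -2.18 (95% interval -2.73 to -1.64, SE 0.259), and at 35.1% with FOSL1sh10, -1.51 (-2.03 to -0.99). Adjusted p-values were 7.38e-05 and 0.00101. Its log2 fold change averaged over both hairpins, -1.85, was the 10th lowest of all 12814 genes. Among the 9 members HMGCS1 also varied most between replicates in each group, with a coefficient of variation of 35.8% with FOSL1sh3, 31.5% with FOSL1sh10 and 24.8% with GFPsh. Of its last 1000 exonic bases 331 overlap exons of an unnamed antisense gene, which had 35 counts in all 9 libraries together.

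Taken relative to its control mean, and not by level, HMGCS1 was lower than the median of the other 8 members in each library with a FOSL1 hairpin. The median log2 value of the other 8 members relative to the control mean was -0.80, -0.38 and -0.66 with FOSL1sh3, -0.27, -0.65 and -0.46 with FOSL1sh10, and -0.07, 0.04 and 0.06 with GFPsh. HMGCS1 minus that median was -1.64, -1.29 and -1.90 with FOSL1sh3 and -0.83, -0.84 and -1.59 with FOSL1sh10, against 0.00, 0.31 and -0.42 with GFPsh. The 6 hairpin values did not overlap the 3 control values. The large fall of HMGCS1 itself enters each of these differences, so this gap is not a separate result. The share of all genes with such a gap was not computed.

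The start of HMGCS1 is shown beside those of MVK, which was also lower in all 6 hairpin libraries, and PMVK, which was not, so that the letters upstream of genes that moved differently can be read together. Each sequence runs from 250 bases before to 50 bases after the start site in RefSeq (GRCh38.p14), 5' to 3' on the gene's own strand, and capitals mark the letters CCAAT on either strand (ATTGG where it lies on the other strand).
HMGCS1, chr5:43313363-43313662, minus strand: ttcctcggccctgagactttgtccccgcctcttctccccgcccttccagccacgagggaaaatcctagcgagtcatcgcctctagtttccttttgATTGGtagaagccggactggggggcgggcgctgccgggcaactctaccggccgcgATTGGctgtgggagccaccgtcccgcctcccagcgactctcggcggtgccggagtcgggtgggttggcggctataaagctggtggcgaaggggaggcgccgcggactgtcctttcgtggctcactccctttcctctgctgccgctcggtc
MVK, chr12:109573544-109573843, plus strand: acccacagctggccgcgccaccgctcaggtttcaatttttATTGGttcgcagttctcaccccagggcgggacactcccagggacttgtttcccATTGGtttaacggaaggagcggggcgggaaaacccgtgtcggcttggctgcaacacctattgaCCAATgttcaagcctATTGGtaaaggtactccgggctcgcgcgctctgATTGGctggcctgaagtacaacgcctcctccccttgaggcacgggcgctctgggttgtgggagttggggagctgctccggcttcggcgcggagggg
PMVK, chr1:154936670-154936969, minus strand: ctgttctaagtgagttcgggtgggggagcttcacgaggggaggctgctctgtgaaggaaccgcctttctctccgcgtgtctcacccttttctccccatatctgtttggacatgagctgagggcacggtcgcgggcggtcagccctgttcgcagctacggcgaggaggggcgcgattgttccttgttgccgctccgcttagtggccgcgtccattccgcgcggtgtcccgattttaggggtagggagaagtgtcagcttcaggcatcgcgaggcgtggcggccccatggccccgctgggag
CCAAT is the letter core of the box bound by NF-Y, a factor known to act beside SREBP at sterol gene promoters. RefSeq windows were matched for 7 of the 9 members, ACAT2 and FDFT1 being the others. CCAAT was found in 4 of these 7 windows, HMGCS1, MVK, MVD and FDPS, and in 35.7% of 27305 windows of all genes. The windows of PMVK, GGPS1 and IDI1 held none. The IDI1 window, however, starts beyond the end of the gene as counted here, and the GGPS1 window ends before the counted gene begins. Matches in HMGCS1 began 155 and 100 bases before the start, both on the other strand. An SREBP-type element written as TCACNCCAC (1.15% of all windows), the AP-1 letters TGANTCA (7.76%) and the E-box CACGTG (7.43%), searched on both strands, were found in none of the 7. These are letter matches, and nothing about binding was measured. Elements that depart from the exact letters are missed, so the lack of a match does not show that an element is absent.

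The first enzyme, ACAT2 (chr6:159760328-159779055, plus strand), had 6.57, 11.1 and 7.64 CPM with FOSL1sh3 and 16.3, 10.5 and 11.5 CPM with FOSL1sh10, against 15.3, 22.4 and 20.7 CPM with GFPsh. The FOSL1sh3 libraries were all below the controls, whereas FOSL1sh10 replicate 1 lay above the lowest control. ACAT2 fell with FOSL1sh3 to 42.8% of the control (adjusted p = 0.00387, log2 fold change -1.22, SE 0.238). Its log2 fold change with FOSL1sh10 was -0.62 (95% interval -1.10 to -0.14, adjusted p = 0.13). In the average of both hairpins it fell by 0.92 (adjusted p = 0.00832), a call that ended without GFPsh replicate 2 (0.0581) or replicate 3 (0.0538). The 3' end of ACAT2 overlaps that of TCP1, a chaperonin subunit gene on the opposite strand, over 397 of its last 1000 exonic bases. Counting used no strand and no option for shared reads, so by default reads on the shared bases go to neither gene. Whether TCP1 bears on the ACAT2 counts was not tested. TCP1 also fell with FOSL1sh3, by 0.87 (adjusted p = 0.00557), and was at -0.31 with FOSL1sh10 (adjusted p = 0.367). ACAT1, the mitochondrial thiolase, had a log2 fold change of -0.45 with FOSL1sh3 (adjusted p = 0.141) and of 0.05 with FOSL1sh10 (adjusted p = 0.928).

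Of the enzymes that turn mevalonate into isopentenyl diphosphate, the kinase MVK (chr12:109573255-109598117, plus strand) had 12.7, 13.7 and 17.6 CPM with FOSL1sh3 and 11.1, 13.5 and 13.0 CPM with FOSL1sh10, against 27.2, 22.1 and 18.2 CPM with GFPsh. All 6 hairpin libraries were below all controls, but FOSL1sh3 replicate 3 lay close to the lowest control. MVK fell with FOSL1sh10 to 56.1% of the control (log2 fold change -0.83, SE 0.198, adjusted p = 0.0175). This call was lost without GFPsh replicate 1 (0.106) or without FOSL1sh10 replicate 1 (0.0797) or 3 (0.0589). With FOSL1sh3 it was at -0.61 (95% interval -1.03 to -0.20, adjusted p = 0.0525), which passed in 5 of 13 alternative settings. MVK fell by 0.72 averaged over both hairpins (adjusted p = 0.0141), and it did not pass there without GFPsh replicate 1 (0.142). MMAB, a cobalamin gene that starts head to head with MVK and shares 306 exonic bases with it, fell with FOSL1sh10 by 0.74 (adjusted p = 0.0103) and was at -0.25 with FOSL1sh3 (adjusted p = 0.334).

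PMVK (chr1:154924734-154936991, minus strand), the phosphomevalonate kinase, had 45.1, 41.0 and 63.5 CPM with FOSL1sh3 and 38.5, 40.9 and 37.8 CPM with FOSL1sh10, against 46.3, 38.8 and 43.5 CPM with GFPsh. The libraries of each hairpin overlapped the controls, with FOSL1sh3 replicate 3 above the rest. Its log2 fold change was 0.22 with FOSL1sh3 (95% interval -0.12 to 0.56) and -0.13 with FOSL1sh10 (-0.48 to 0.21), with adjusted p of 0.42 and 0.722. These intervals leave out a fall of the size seen in HMGCS1.

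MVD (chr16:88651935-88663161, minus strand), the decarboxylase that forms isopentenyl diphosphate, had 57.9, 73.4 and 73.6 CPM with FOSL1sh3 and 81.6, 69.1 and 96.5 CPM with FOSL1sh10, against 90.6, 113 and 93.2 CPM with GFPsh. The FOSL1sh3 libraries were below all controls, and FOSL1sh10 replicate 3 was among the controls. MVD fell with FOSL1sh3 by 0.54 on the log2 scale (SE 0.157, adjusted p = 0.0341). That call ended without GFPsh replicate 1, 2 or 3 (0.0701, 0.136 and 0.0595), without FOSL1sh3 replicate 1 (0.121), and with only the groups compared in the fit (0.0529). With FOSL1sh10 MVD was at -0.27 (95% interval -0.59 to 0.06, adjusted p = 0.381).

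IDI1 (chr10:1039152-1049170, minus strand), the isopentenyl diphosphate isomerase, had 151, 163 and 113 CPM with FOSL1sh3 and 200, 158 and 200 CPM with FOSL1sh10, against 253, 294 and 275 CPM with GFPsh. The hairpin libraries did not overlap the controls, and the lowest library was FOSL1sh3 replicate 3. IDI1 fell to 51.9% of the control with FOSL1sh3 (log2 fold change -0.95, SE 0.155, adjusted p = 0.00116) and to 67.8% with FOSL1sh10 (-0.56, SE 0.154, adjusted p = 0.0381). The FOSL1sh10 call ended without any 1 of GFPsh replicates 1, 2 and 3 (0.0642, 0.131 and 0.0977) or FOSL1sh10 replicates 1, 2 and 3 (0.0734, 0.187 and 0.0765), and with library totals alone as scaling (0.0762). In the average of both hairpins IDI1 fell by 0.75 (adjusted p = 0.002), and it passed in all 15 alternatives run for that comparison.

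Of the prenyl diphosphate synthases, FDPS (chr1:155308748-155320666, plus strand) had 8.11, 15.7 and 11.7 CPM with FOSL1sh3 and 16.7, 11 and 12.8 CPM with FOSL1sh10, against 15.2, 22.8 and 21.3 CPM with GFPsh. FOSL1sh3 replicate 2 and FOSL1sh10 replicate 1 lay just above the lowest control, and the other hairpin libraries below it. Its log2 fold change was -0.76 with FOSL1sh3 (95% interval -1.26 to -0.25, adjusted p = 0.0512) and -0.56 with FOSL1sh10 (-1.06 to -0.06, adjusted p = 0.194). The FOSL1sh3 value passed in 6 of 13 alternatives, among them DESeq2 (0.031) and limma-voom (0.0374). FDPS counts are uncertain, since 8 pseudogene copies are annotated (22 counts in all, against 1126 for FDPS) and 384 of its last 1000 exonic bases overlap RUSC1-AS1 on the opposite strand. RUSC1-AS1 was itself at -0.89 with FOSL1sh3 (adjusted p = 0.102) and -0.56 with FOSL1sh10 (adjusted p = 0.387).

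GGPS1 (chr1:235327350-235344532, plus strand) had 16.6, 17.7 and 9.67 CPM with FOSL1sh3 and 15, 14.9 and 19.1 CPM with FOSL1sh10, against 19.3, 13.5 and 21.3 CPM with GFPsh. The groups overlapped throughout, with only FOSL1sh3 replicate 3 below the lowest control. Its log2 fold change was -0.30 with FOSL1sh3 (95% interval -0.78 to 0.19) and -0.14 with FOSL1sh10 (-0.62 to 0.34), with adjusted p of 0.446 and 0.807. GGPS1 had 76 to 193 counts per library.

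FDFT1 (chr8:11795573-11839309, plus strand), squalene synthase, had 332, 316 and 253 CPM with FOSL1sh3 and 249, 256 and 274 CPM with FOSL1sh10, against 369, 349 and 408 CPM with GFPsh. Every hairpin library was below every control. FDFT1 fell with FOSL1sh10 to 69.2% of the control (log2 fold change -0.53, SE 0.139, adjusted p = 0.0302) and was at -0.32 with FOSL1sh3 (95% interval -0.61 to -0.03, adjusted p = 0.146). The FOSL1sh10 call ended without GFPsh replicate 1, 2 or 3 (0.081, 0.0544 and 0.12) and also when FOSL1sh10 replicate 1, 2 or 3 was left out (0.113, 0.108 and 0.0753), and with library totals alone (0.0771). FDFT1 fell by 0.43 averaged over both hairpins (adjusted p = 0.0395). That call ended without any 1 control (0.0694 to 0.173), without FOSL1sh3 replicate 3 (0.0503) and without any 1 FOSL1sh10 library (0.066 to 0.0841).

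**Figure D3:**
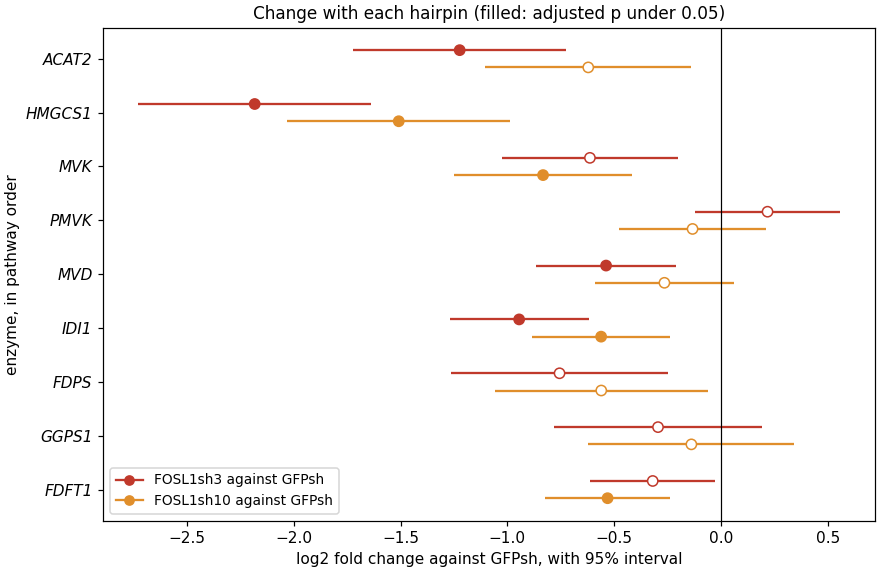
Log2 fold change of each enzyme (horizontal axis) with its 95% interval for FOSL1sh3 against GFPsh and FOSL1sh10 against GFPsh; enzymes run down the page in pathway order and filled points had an adjusted p under 0.05. HMGCS1, at -2.18 and -1.51, lies left of all other enzymes, and the intervals of PMVK and GGPS1 include 0 with both hairpins.

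The order of the levels was examined per kilobase of exon. The 3' tagging of this protocol makes counts depend little on length, so this order belongs to that unit and can differ in CPM. HMGCS1 was 7th of 9 with FOSL1sh3, at 2.35 ± 0.84 CPM per kb, 6th with FOSL1sh10, at 3.74 ± 1.18, and 5th with GFPsh, at 10.6 ± 2.62 (SD, n = 3 each). Its libraries overlapped those of both neighbours in the order with either FOSL1 hairpin and of neither in control cells. PMVK overlapped IDI1 with FOSL1sh3 (38.9 ± 9.38 and 32.8 ± 6 CPM per kb), whereas it lay below IDI1 in control cells (33.5 ± 2.97 and 63.0 ± 4.72 CPM per kb). That overlap held per kilobase only: in CPM the FOSL1sh3 libraries were at 41.0 to 63.5 for PMVK and 113 to 163 for IDI1. FDFT1 was highest in all groups, at 57.8 ± 8.08 with FOSL1sh3, 49.9 ± 2.41 with FOSL1sh10 and 72.1 ± 5.81 CPM per kb with GFPsh. In control cells FDFT1 overlapped IDI1, MVD (21.0 ± 2.62) overlapped no neighbour, and FDPS, GGPS1, ACAT2 and MVK, from 5.32 to 3.47 CPM per kb, each overlapped the next. The summed level of the 9 members was 622 ± 57.0 CPM with FOSL1sh3, 639 ± 43.6 CPM with FOSL1sh10 and 920 ± 32.6 CPM with GFPsh (SD, n = 3 each), a sum led by FDFT1 and IDI1. HMGCS1 made up 1.76% ± 0.498 of that sum with FOSL1sh3, 2.77% ± 0.903 with FOSL1sh10 and 5.40% ± 1.30 with GFPsh.

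The hairpins were compared with each other in the same fit. By edgeR none of the 9 members differed at an adjusted p under 0.05, where 12.7% of all genes did, and 4 had an unadjusted p under 0.05, as did 3592 of the 12814 genes. DESeq2 and limma-voom also called none. HMGCS1 was lower with FOSL1sh3 by a log2 difference of -0.67 (95% interval -1.23 to -0.12, adjusted p = 0.104), ACAT2 by -0.60 (-1.11 to -0.09, adjusted p = 0.111) and IDI1 by -0.38 (-0.71 to -0.06, adjusted p = 0.111). PMVK was at 0.35 (0.01 to 0.69, adjusted p = 0.167), with all FOSL1sh3 libraries above all FOSL1sh10 libraries, as in 14.8% of all genes. The unadjusted intervals of these 4 leave out 0, so that equal levels with both hairpins are not shown by the adjusted test. Scaling factors were 0.921 to 0.962 in FOSL1sh3, 1.02 to 1.10 in FOSL1sh10 and 0.987 to 1 in GFPsh, so the groups did not overlap in them. With library totals alone HMGCS1, ACAT2 and IDI1 passed (adjusted p = 0.0325, 0.0344 and 0.0178). That scaling put the median of all genes at -0.17 on the log2 scale and the higher share of called genes at 17.6%, against 45.1%. Without FOSL1sh3 replicate 2, HMGCS1 (adjusted p = 0.0215) and ACAT2 (0.034) passed.

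Genes that take up the products of the pathway or govern it were set beside the members, with values given as log2 fold changes. From squalene to cholesterol 11 of 12 genes were tested; CYP51A1, the lanosterol demethylase, was too low. With FOSL1sh3, 4 of the 11 fell (SQLE, MSMO1, SC5D and DHCR7) and with FOSL1sh10 3 fell (MSMO1, HSD17B7 and EBP). Of all genes 5.65% and 2.15% were called lower, and the list medians were -0.43 and -0.24. In the average of both hairpins 5 fell, beside 2.97% of all genes. The oxidase MSMO1 led by p at -0.84 (adjusted p = 0.000322), then squalene epoxidase, SQLE, at -0.78 (0.0021), the desaturase SC5D at -0.58 (0.0285) and the ketosteroid reductase HSD17B7 at -0.62 (0.0316). The FOSL1sh10 count was 1 without GFPsh replicate 1 or 2 or FOSL1sh10 replicate 1 or 2. The count in the average was 2 or 3 without any 1 control, any 1 FOSL1sh10 library or FOSL1sh3 replicate 1.

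Of 18 genes for SREBP control and sterol traffic 16 were tested. With FOSL1sh3 INSIG1, INSIG2 and STARD4 fell and NR1H3 and SCAP rose. With FOSL1sh10 only INSIG1 fell. Of all genes 10.9% were called in either direction with FOSL1sh3, 5.28% with FOSL1sh10 and 6.22% in the average. In the average of both hairpins 4 fell: INSIG1, which retains SREBP in the endoplasmic reticulum and is itself an SREBP target, at -1.09 (adjusted p = 0.000273), the sterol carrier STARD4 at -1.02 (0.0223), the cholesterol esterifying enzyme SOAT1 at -0.56 (0.0353) and INSIG2 at -0.55 (0.042). SREBF2, which encodes SREBP-2, was at 0.00 (95% interval -0.25 to 0.26, adjusted p = 0.988), and SREBF1 at -0.27 (-0.54 to 0.00, adjusted p = 0.24). The medians of the list were -0.08 with FOSL1sh3 and -0.10 with FOSL1sh10. Without any 1 control 3 genes of the list were called with FOSL1sh3, and 2 without FOSL1sh3 replicate 3. The INSIG1 call was the sole call with FOSL1sh10, and the list had 0 calls there without GFPsh replicate 2 or 3 or any 1 FOSL1sh10 library or with library totals alone, 3 by DESeq2 and 4 with only the groups compared. In the average 1 was called without GFPsh replicate 1 or 3, and 2 without FOSL1sh3 replicate 1 or any 1 FOSL1sh10 library.

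Users of isoprenoids outside sterol synthesis (prenyl transferases and enzymes for ubiquinone, dolichol, haem and tRNA) were set beside these. All 17 were tested, with medians of -0.01 with FOSL1sh3 and 0.12 with FOSL1sh10. With FOSL1sh3 2 of the 17 fell, where 5.65% of all genes were called lower and 10.9% in either direction. They were PDSS1, which builds the ubiquinone side chain, at -1.01 (adjusted p = 0.0182) and NUS1, a dolichol synthesis subunit, at -1.38 (adjusted p = 0.0348). Both are named after their values were seen, because so few passed. Neither passed without GFPsh replicate 1 or 2 or FOSL1sh3 replicate 3, and 1 passed without FOSL1sh3 replicate 1 or by limma-voom. With FOSL1sh10 none was called by edgeR, DESeq2 or limma-voom, and none had an unadjusted p under 0.05, where 19.4% of all genes did. Of 6 genes for acetyl-CoA supply and paralogs of the members, 5 were tested and none was called by any of these tools with either hairpin, while 3 with FOSL1sh3 (26.9% of all genes) and 2 with FOSL1sh10 had an unadjusted p under 0.05. Without FOSL1sh3 replicate 2, 2 of the 5 were called with FOSL1sh3. Differences between these lists were not tested.

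**Figure D4:**
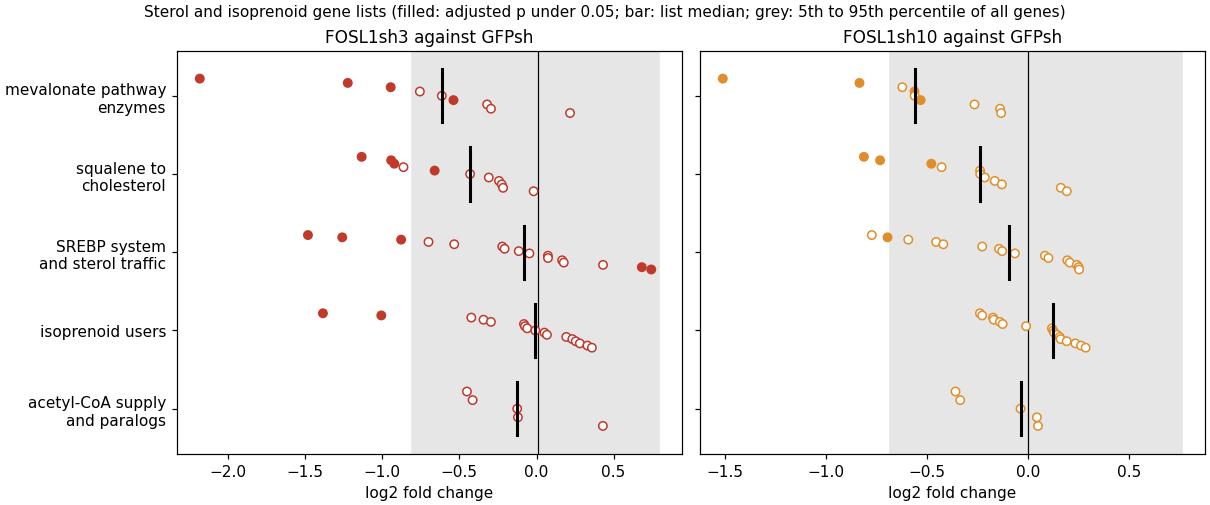
Log2 fold change (horizontal axis) of every tested gene in 5 lists with FOSL1sh3 against GFPsh (left) and FOSL1sh10 against GFPsh (right). Filled points had an adjusted p under 0.05, and black bars are list medians. The grey band runs from the low to the high 5% tail of all genes, and the thin line marks the median of all genes tested. The mevalonate enzymes have the lowest list median with each hairpin, -0.61 and -0.56.

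Profiles were then compared with that of HMGCS1 across the 9 libraries, by the root mean square difference of log2 CPM, each gene taken relative to its own control mean. Among 9988 genes with a mean of at least 30 counts, the nearest was FOSL1 itself, at a difference of 0.417 log2 units. It was followed by BARX2, a homeobox gene, at 0.444, RGS2, a regulator of G protein signalling, at 0.447, IL1RN, the interleukin 1 receptor antagonist, at 0.461, and the membrane protein gene TMEM158 at 0.58. None of these 5 is a sterol enzyme. The nearest other member of the pathway was ACAT2 at rank 27 (0.806), then IDI1 at rank 91 (0.943), FDPS at rank 166 (1.04) and MVK at rank 247 (1.08), while PMVK was at rank 6096 (1.65). This measure favours genes with a fall of the same size, and nearness says nothing of shared control.

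**Figure D5:**
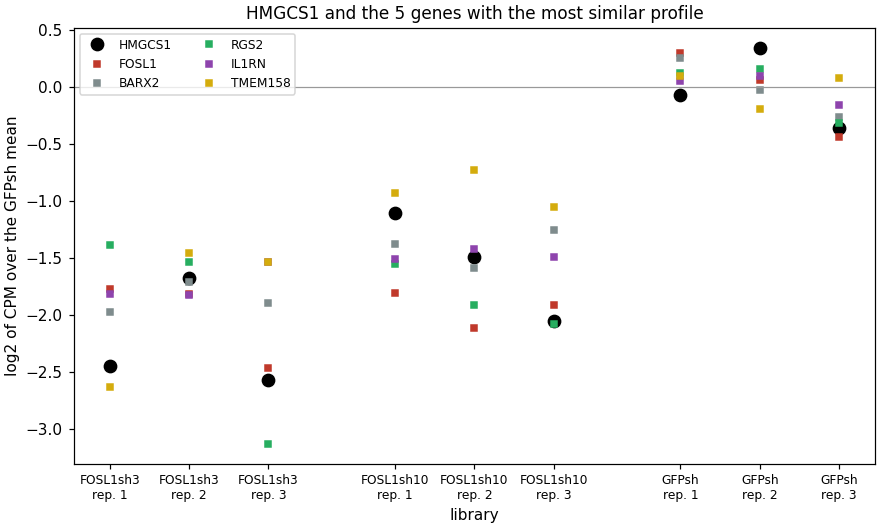
Log2 of CPM over the GFPsh mean (vertical axis) in each library (horizontal axis) for HMGCS1 and the 5 genes nearest to it. All 6 genes lie below 0 in all libraries with a FOSL1 hairpin, where HMGCS1 spans -2.56 to -1.10.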

How the data were processed

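For each library the authors deposited raw gene counts, not normalized. Per the labels, low-input MARS-seq libraries were made, which tag transcripts near their 3' ends. The submitters' processing notes name FastQC 0.11.5, the aligner STAR 2.5.3a and the build hg38. Per the file headers, featureCounts 1.6.0 counted reads over exons of GENCODE genes with no option set for strand, multi-mapping reads or reads shared by overlapping genes; the sources used here do not say whether molecular identifiers were collapsed. By default, reads on bases shared by annotated genes are then left out, so overlaps can lower counts. With no strand, reads from the opposite strand beyond annotated exons can still be mixed in.

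Identifiers were matched to symbols for 57799 of 58381 genes. The test was that of edgeR 4.0.16 in R 4.3.3, after its filter for low genes (at least 10 counts, and 15 in total) and with TMM scaling: the quasi-likelihood test in 1 fit over 9 libraries with group as the only term, and Benjamini-Hochberg adjustment over 12814 genes. A gene was called, and is said to have fallen or risen, at an adjusted p under 0.05. Log2 fold changes are FOSL1 hairpin over GFPsh, or FOSL1sh3 over FOSL1sh10. CPM values use TMM-scaled totals. SE is the size of the fold change (log2) divided by the root of the F statistic, and 95% intervals follow from it without adjustment. Alternatives were DESeq2 1.42.0, limma-voom (limma 3.58.1), other scalings, no filter, only the compared groups, a replicate block and leaving out each library. The fit was tested on simulated data. Named genes were the 9 members, FOSL1, up to 4 genes a list with the smallest p among those called in the average of both hairpins, ACAT1 and the 5 profiles nearest HMGCS1; other genes were named after their values were seen. Some genes of the lists are not reported here. The members and lists were chosen with earlier results of these data known.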

Additional observations from a re-analysis of the deposited data

Results flagged for a closer look

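No enzyme among the 9 members met a criterion for a closer look, and groups of 3 libraries were too small for a test of outlying samples. By chi-square per gene on library totals, FOSL1sh3 replicate 2 was at 20.24 and 21.18 from FOSL1sh3 replicates 1 and 3. It was nearer to the GFPsh libraries (14.32 to 19.33) and to FOSL1sh10 replicate 1 (15.1), but further from FOSL1sh10 replicates 2 and 3 (33.87 and 26.61). This measure grows with depth and was not tested. Of the genes named above from the sterol and isoprenoid lists, 6 differed between the hairpins in the direct test, each lower with FOSL1sh3. Counting genes not named here, 3 of 11 tested genes from squalene to cholesterol differed. So did 3 of 16 for SREBP control and sterol traffic and 2 of 17 isoprenoid users, where 12.7% of all genes did. Without FOSL1sh10 replicate 2 these list counts were 0, 1 and 1. The count from squalene to cholesterol was 1 without FOSL1sh3 replicate 3 or FOSL1sh10 replicate 3. That of isoprenoid users was also 1 without FOSL1sh3 replicate 3. The SREBP count was also 1 without FOSL1sh10 replicate 1 or 3 or FOSL1sh3 replicate 1 or 3. It was 1 with only the groups compared, but 5 without FOSL1sh3 replicate 2. INSIG1 differed by a log2 fold change of -0.79 (adjusted p = 0.00953) and INSIG2 by -0.65 (adjusted p = 0.029). Squalene epoxidase, SQLE, differed by -0.71 (adjusted p = 0.00932), with 30.8, 35.8 and 28.4 CPM with FOSL1sh3, 39.4, 55.5 and 59.4 CPM with FOSL1sh10, and 76.6, 65.2 and 66.5 CPM with GFPsh. SC5D differed by -0.69 (adjusted p = 0.0189). PDSS1 differed by -1.13 (adjusted p = 0.0071), and its FOSL1sh10 libraries (11.6, 12.6 and 10.8 CPM) overlapped the controls (12.1, 12.0 and 7.83 CPM). NUS1 differed by -1.54 (adjusted p = 0.0171) at 1.15 to 1.73 CPM with FOSL1sh3 and 2.85 to 6.45 CPM with FOSL1sh10. PDSS1 and NUS1 were named because they fell with FOSL1sh3. INSIG1, INSIG2, SQLE and SC5D were named because they fell in the average, which includes FOSL1sh3. The same libraries enter the direct test, so lower values with FOSL1sh3 were partly set by that choice. Outside these lists TCP1 (-0.56, adjusted p = 0.0476), SOX9 (-0.80, 0.00189), EPCAM (-0.49, 0.0343) and SERPINA1 (-0.71, 0.0323) were also lower with FOSL1sh3, and KRT19 was higher (0.50, 0.0243).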

How the results depend on the processing

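HMGCS1 passed with FOSL1sh3, with FOSL1sh10 and in their average in every alternative run, its log2 fold change running from -2.50 to -1.97, from -1.74 to -1.30 and from -2.01 to -1.64. ACAT2 and IDI1 with FOSL1sh3 also passed in all 13. No call reversed. With FOSL1sh10 the count of called members was 2 with library totals alone, against 4, since IDI1 and FDFT1 no longer passed, and that scaling moved the median of all genes to 0.11. Between the hairpins 3 members passed with library totals alone, 1 with no filter and 1 with the replicate block, HMGCS1 in both of the last settings, against 0. With only the groups compared FOSL1sh10 had 1124 called genes, against 676. Leaving out 1 library gave 3 to 5 called members with FOSL1sh3, 1 to 2 with FOSL1sh10, 3 to 6 in the average and 0 to 2 between the hairpins. The counts of all called genes then ran from 599 to 1803 (1392 with all libraries), from 347 to 422 (676), from 312 to 1002 (797) and from 712 to 1920 (1633). With FOSL1sh3 it was 599, 895 and 747 without GFPsh replicates 1, 2 and 3, and 756 without FOSL1sh3 replicate 3. With FOSL1sh10 it was 397, 416 and 415 without GFPsh replicates 1, 2 and 3, and 422, 347 and 373 without FOSL1sh10 replicates 1, 2 and 3. In the average it was 316, 454 and 312 without those controls, and 529 and 524 without FOSL1sh10 replicate 1 or 3. Between the hairpins it was 1051 without FOSL1sh3 replicate 3, and 712 and 907 without FOSL1sh10 replicate 2 or 3. Fewer libraries were tested in each; other causes were not tested. Same-numbered replicates had correlated deviations over 0.1 in 2 of 9 pairs (-0.116 to 0.183), and 2 of 9 libraries correlated best with their own number, so numbers were not taken to pair libraries. With the replicate block the FDFT1 call in the average was lost (0.0503) and FDPS with FOSL1sh3 passed (0.046). Low counts limit ACAT2, FDPS, GGPS1 and MVK, each at 60 to 203 counts per library. HMGCS1 shares this limit in the libraries with a FOSL1 hairpin, at 66 to 162 counts.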
